A study of Oryza sativa with 3 samples.

Results

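The miRNA families miR164, miR171 and miR396 were followed in embryos of Nipponbare rice during the first 24 h of seed imbibition. All mature sequences that the deposited table of known miRNAs assigns to these families were taken, each counted once, which gave 7 of the 59 known mature sequences and of the 289 named mature sequences in both deposited tables. There were 2 members of miR164, 3 of miR171 and 2 of miR396, and they came from 12 of the 83 listed precursors. The families were picked by name and not by a rule on their reads, though earlier results of these data were known. De-hulled seeds were imbibed in distilled water in the dark at 30 °C, and their embryos were dissected at 0 (dry seed), 12 and 24 hours after imbibition (HAI). Small RNAs of 18–30 nt were sequenced, with 1 library per time point made from the mixed RNA of 4 plates with 50 seeds each. No difference between time points therefore has a replicate check in these reads, and every test below compares reads of 2 libraries and covers counting error only. The paper also measured selected miRNAs by stem-loop real-time RT-PCR with biological replicates, among them osa-miR171bcde and osa-miR171h by its names. It reported that most of the selected miRNAs followed the sequencing and that some did not. Those measurements are not used here. Because whole embryos were dissected, a change in the cells that make a miRNA and a change of its level per cell cannot be told apart.

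Plant miRNAs are cut from hairpin transcripts and guide Argonaute proteins to nearly complementary mRNAs, which are cleaved or translationally repressed. The families studied here are shared by distant land plants, and each is known for repressing 1 group of transcription factors. The miR164 family targets mRNAs of NAC factors, which in Arabidopsis set organ boundaries and act in lateral roots and ageing leaves. The miR171 family targets GRAS factors of the HAIRY MERISTEM (SCARECROW-LIKE) type, which keep meristem cells undifferentiated. The miR396 family targets growth-regulating factors (GRFs), which promote cell proliferation, and in rice the pairing of this miRNA with GRF genes affects grain size.

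The 7 mature sequences are shown because the comparison within each family turns on how alike its members are. All are 21 nt long and begin with T in the DNA letters of the tables. Capitals mark the seed, bases 2 to 8 from the 5′ end.
osa-miR164abf: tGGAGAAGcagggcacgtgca
osa-miR164c: tGGAGAAGcagggtacgtgca
osa-miR171bcde: tGATTGAGccgtgccaatatc
osa-miR171h: tGAGCCGAaccaatatcactc
osa-miR171i: tTGAGCCGcgtcaatatctct
osa-miR396a: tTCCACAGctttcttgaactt
osa-miR396b: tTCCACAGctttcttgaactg

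The members of miR396 share a seed and differ by 1 base, T21G (base of osa-miR396a first, position counted from its 5′ end). The members of miR164 also share a seed and differ by 1 base, C14T (base of osa-miR164abf first). The members of miR171 have 3 different seeds and shifted ends. The start of osa-miR171i falls on base 4 of osa-miR171bcde, with 16 of 18 overlapping bases identical, and the start of osa-miR171h falls on its base 5, with 15 of 17 identical. A primer that the study lists as osa-miR171h carries bases of the sequence named osa-miR171i here, and all values below follow the names and sequences of the deposited table. No other named sequence in either table carried the seed of a member. The authors allowed up to 2 mismatches to miRBase, and how a read that fits both 1-base variants was assigned is not given in the sources used here, so the split of reads between osa-miR396a and osa-miR396b and between the members of miR164 carries this uncertainty.

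The libraries had 19203513, 22332607 and 17359816 genome-mapped reads at 0, 12 and 24 HAI, recovered by dividing reads by TPM (here reads per 1000000 genome-mapped reads). A single read equalled 0.0521, 0.0448 and 0.0576 TPM. The 7 members together had 2139, 4369 and 5004 reads, or 0.750%, 0.689% and 0.848% of all miRNA reads at 0, 12 and 24 HAI. All miRNA reads of both tables made up 1.48%, 2.84% and 3.40% of the mapped reads at these times, so a ratio in TPM contains this general rise. If scaled to the summed miRNA reads instead, every log2 ratio is lower by 0.94 for 12 against 0 HAI, by 1.20 for 24 against 0 HAI and by 0.26 for 24 against 12 HAI. With edgeR's TMM factors it is lower by 0.81, 1.002 and 0.19. Which denominator matches the amount per embryo was not tested, as no spike-in is described.

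In the miR396 family the 1-base variants moved apart. At 0, 12 and 24 HAI, osa-miR396a had 391 reads (20.4 TPM), 694 reads (31.1 TPM) and 1564 reads (90.1 TPM). For osa-miR396b, the counts were 717 (37.3 TPM), 966 (43.3 TPM) and 645 (37.2 TPM). Thus osa-miR396b had more reads than osa-miR396a at 0 and 12 HAI, and fewer at 24 HAI.

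The TPM of osa-miR396a was 4.42 times as high at 24 HAI as at 0 HAI (exact conditional 95% limits, 3.96–4.96; adjusted p = 2.09e-191, two-sided exact conditional binomial test, adjusted by Benjamini-Hochberg over all miRNAs with a read in either library, as for all single miRNAs below). Most of this came after 12 HAI. The ratio of 12 to 0 HAI was 1.53 (1.35–1.73, adjusted p = 5.28e-11, exact test), whereas that of 24 to 12 HAI was 2.90 (2.65–3.17, adjusted p = 1.42e-130, exact test). The rise to 24 HAI kept its direction under the summed miRNA reads and TMM factors, but the ratio of 12 to 0 HAI became a called decrease under the summed miRNA reads (log2 ratio -0.33, adjusted p = 0.00239, exact test) and was below 1 without a call under TMM factors (-0.20, adjusted p = 0.130, exact test).

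For osa-miR396b the ratio of 24 to 0 HAI was 0.995 (0.893–1.11, adjusted p = 0.958, exact test). These limits cover counting error of the TPM ratio between 2 libraries and do not bound the level in the embryo. The ratio was 1.16 for 12 against 0 HAI (1.05–1.28, adjusted p = 0.00727, exact test) and 0.859 for 24 against 12 HAI (0.776–0.950, adjusted p = 0.0109, exact test). The rise at 12 HAI was not called when scaled to reads of 18–30 nt (log2 ratio 0.15, adjusted p = 0.0792, exact test) or to mapped reads minus structural RNA (log2 ratio 0.12, adjusted p = 0.177, exact test), and it became a called decrease under the summed miRNA reads (log2 ratio -0.72, adjusted p = 2.26e-22, exact test) and TMM factors (-0.60, adjusted p = 1.32e-15, exact test). Relative to the summed miRNA reads, the log2 ratio of 24 to 0 HAI was -1.20 (adjusted p = 2.24e-51, exact test), which is a called decrease. Of both tables, 141 miRNAs had at least 100 reads in all, and their order by ratio does not depend on the denominator. In this order osa-miR396b ranked 136 by its ratio of 24 to 0 HAI and osa-miR396a ranked 27. By the ratio of 24 to 12 HAI, osa-miR396a ranked 6 and osa-miR396b ranked 107.

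A comparison of variants inside the same libraries is free of the library total. Of the miR396 reads, osa-miR396a took 35.3% (95% interval after Wilson, 32.5–38.1%), 41.8% (39.5–44.2%) and 70.8% (68.9–72.7%) at 0, 12 and 24 HAI. Between 24 and 0 HAI the ratio of osa-miR396a was 4.45 times that of osa-miR396b (exact 95% limits, 3.80–5.20; adjusted p = 2.12e-84, two-sided Fisher's exact test on the reads, adjusted over the 23 pairs of mature sequences that share a family in the known table). For 24 against 12 HAI the corresponding value was 3.38 (2.95–3.87, adjusted p = 3.24e-72, Fisher's exact test), and for 12 against 0 HAI it was 1.32 (1.12–1.55, adjusted p = 0.00111, Fisher's exact test). Such differences were common at this depth, since 65.2% of the 23 pairs differed for 24 against 0 HAI, 56.5% for 24 against 12 HAI and 69.6% for 12 against 0 HAI.

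**Figure D1:**
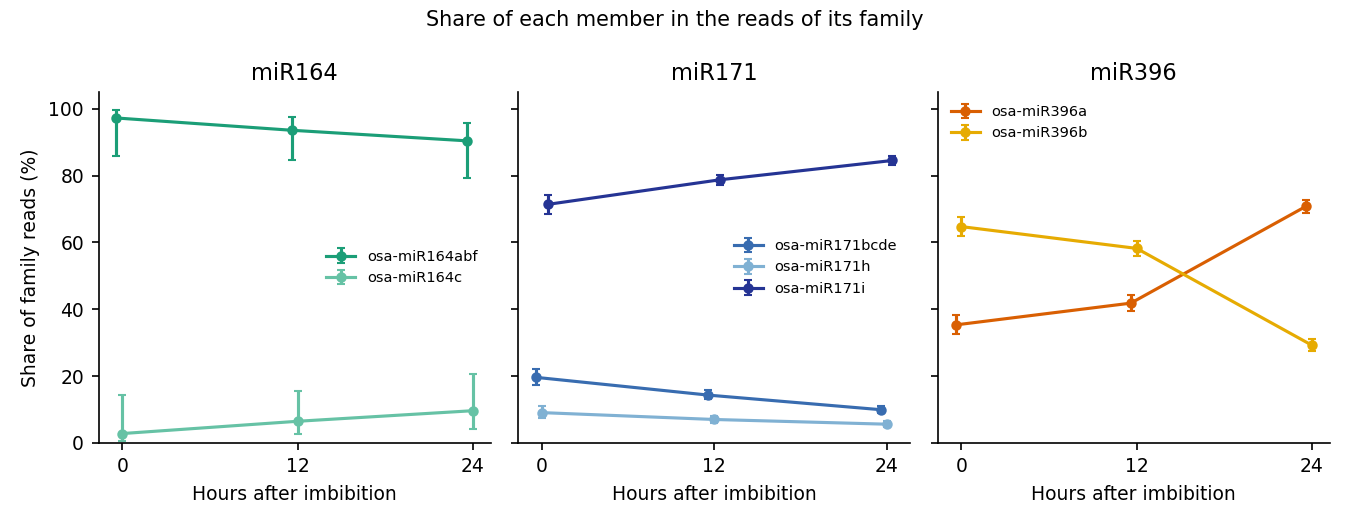
Share of each member in the reads of its family (%, y axis) against hours after imbibition, 1 panel per family, with Wilson 95% intervals as bars and 1 library per point, set slightly apart along the x axis. The lines of osa-miR396a and osa-miR396b cross between 12 HAI, with 41.8% for osa-miR396a, and 24 HAI, with 70.8%.

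Each miR396 variant has 1 listed precursor, so the listing assigns its reads to 1 locus, apart from the uncertainty between the variants. Whether other loci yield the same mature sequence was not tested. The precursors are shown because their products diverged, with the mature sequence in capitals at the 5′ end.
osa-MIR396a: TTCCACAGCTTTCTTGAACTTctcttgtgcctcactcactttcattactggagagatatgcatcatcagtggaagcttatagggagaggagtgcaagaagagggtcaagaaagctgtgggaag
osa-MIR396b: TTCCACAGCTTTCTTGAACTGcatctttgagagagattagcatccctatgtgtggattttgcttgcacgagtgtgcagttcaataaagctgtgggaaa

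The hairpin osa-MIR396a of 123 nt was listed in an exon on chromosome 2, minus strand, from 34287881 to 34288003 in MSU 7.0. The hairpin osa-MIR396b of 98 nt was listed as intergenic on chromosome 6, plus strand, from 3669659 to 3669756. In structures computed with RNAfold, 20 of the 21 bases of the mature sequence were paired in each hairpin. The table listed a folding energy of -55.3 kcal/mol for osa-MIR396a and -43.6 kcal/mol for osa-MIR396b, and no miRNA* (the opposite strand of the duplex) for either.

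In the miR171 family the member with the most reads also gained most. At 0, 12 and 24 HAI, osa-miR171i had 710 reads (37.0 TPM), 2084 reads (93.3 TPM) and 2318 reads (133.5 TPM). For osa-miR171bcde they were 195 (10.2 TPM), 378 (16.9 TPM) and 272 (15.7 TPM). For osa-miR171h they were 90 (4.69 TPM), 185 (8.28 TPM) and 153 (8.81 TPM). The order of these members was the same in every library, with counting intervals that did not overlap.

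The ratio of 24 to 0 HAI was 3.61 for osa-miR171i (3.32–3.93, adjusted p = 3.23e-233, exact test), with 2.52 reached at 12 HAI (2.32–2.75, adjusted p = 1.39e-112, exact test) and a further 1.43 between 12 and 24 HAI (1.35–1.52, adjusted p = 4.66e-31, exact test). The larger step of osa-miR171i thus fell before 12 HAI and that of osa-miR396a after it, and the limits of these 2 members did not overlap in either interval. Relative to the summed miRNA reads and to TMM factors, osa-miR171i remained higher at 24 than at 0 HAI and at 12 than at 0 HAI.

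For osa-miR171bcde the ratio of 24 to 0 HAI was 1.54 (1.28–1.86, adjusted p = 1.00e-05, exact test), and for osa-miR171h it was 1.88 (1.44–2.47, adjusted p = 5.25e-06, exact test). Both were also called higher at 12 than at 0 HAI, by ratios of 1.67 (1.40–1.99, adjusted p = 1.58e-08, exact test) and 1.77 (1.37–2.30, adjusted p = 2.40e-05, exact test). However, these ratios turned to below 1 under the summed miRNA reads. With TMM factors that of osa-miR171bcde did too, and that of osa-miR171h lost its call (log2 ratio 0.013). Neither differed detectably in TPM between 24 and 12 HAI, with ratios of 0.926 (0.789–1.08) and 1.06 (0.853–1.33), though under the summed miRNA reads and TMM factors osa-miR171bcde was called lower (log2 ratios -0.37 and -0.31) and the ratio of osa-miR171h turned to below 1 without a call. Both 24 to 0 HAI ratios turned to below 1 under the summed miRNA reads and TMM factors, and the decrease of osa-miR171bcde was called there, with log2 ratios of -0.57 and -0.38 (adjusted p = 0.000133 and 0.0188, exact test).

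Of the miR171 reads, osa-miR171i took 71.4% (68.5–74.1%), 78.7% (77.1–80.2%) and 84.5% (83.1–85.8%) at 0, 12 and 24 HAI. The share of osa-miR171bcde was 19.6% (17.3–22.2%), 14.3% (13.0–15.7%) and 9.92% (8.85–11.1%), and that of osa-miR171h was 9.05% (7.42–10.99%), 6.99% (6.08–8.02%) and 5.58% (4.78–6.50%). For 24 against 0 HAI, the ratio of osa-miR171i was 2.34 times that of osa-miR171bcde (1.90–2.88, adjusted p = 2.53e-15, Fisher's exact test) and 1.92 times that of osa-miR171h (1.44–2.54, adjusted p = 1.21e-05, Fisher's exact test). The same quotients were 1.51 (1.24–1.84, adjusted p = 6.47e-05, Fisher's exact test) and 1.43 (1.08–1.87, adjusted p = 0.0137, Fisher's exact test) for 12 against 0 HAI, and 1.55 (1.30–1.83, adjusted p = 8.97e-07, Fisher's exact test) and 1.34 (1.07–1.69, adjusted p = 0.0179, Fisher's exact test) for 24 against 12 HAI, so osa-miR171i had the higher ratio in each step. The ratios of osa-miR171bcde and osa-miR171h for 24 against 0 HAI were not distinguished, with a quotient of 0.821 (0.588–1.14, adjusted p = 0.262, Fisher's exact test).

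**Figure D2:**
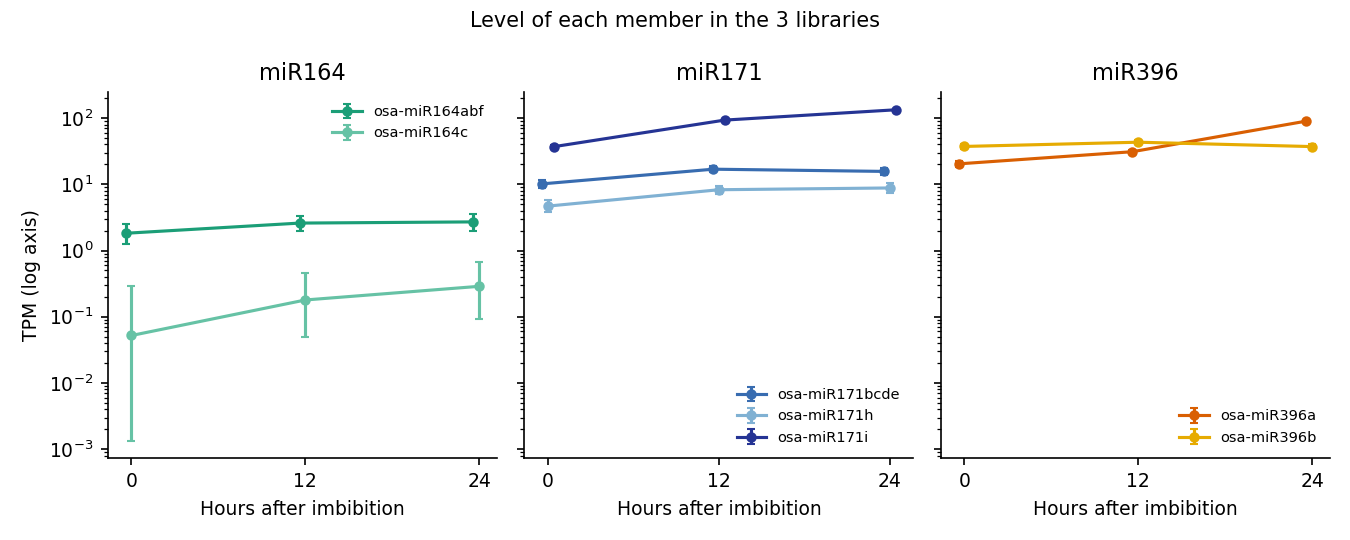
Level of each member in TPM (log axis) against hours after imbibition, 1 panel per family, with exact Poisson 95% intervals as bars and 1 library per point, set slightly apart along the x axis. The highest point is osa-miR171i at 24 HAI with 133.5 TPM, and the lowest is osa-miR164c at 0 HAI, which rests on 1 read.

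The reads of osa-miR171bcde belong to 4 listed precursors with the same mature sequence, so they cannot be tied to 1 locus. These were osa-MIR171b (chromosome 8, plus strand, 5369165 to 5369242, intergenic), osa-MIR171c (chromosome 4, minus strand, 31713482 to 31713558, exon), osa-MIR171d (chromosome 10, plus strand, 21237325 to 21237437, intergenic) and osa-MIR171e (chromosome 3, plus strand, 1970499 to 1970595, exon), all in MSU 7.0. The single precursor of osa-miR171i, osa-MIR171i of 104 nt, was listed as intergenic on chromosome 3, plus strand, from 21191610 to 21191713. That of osa-miR171h, osa-MIR171h, was the shortest of the 12 precursors with 57 nt, and was listed as intergenic on chromosome 4, plus strand, from 28482474 to 28482530. All members of miR171 lie on the 3p arm, whereas those of miR164 and miR396 lie on the 5p arm.

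One sequence of the predicted table, OsmiR-87, overlaps a miR171 hairpin. Its precursor of 84 nt, listed on chromosome 8, plus strand, from 5369162 to 5369245, covers osa-MIR171b and 3 more bases at each end. It is shown because a sequence is listed on each of its arms, with OsmiR-87 in capitals at the 5′ end and osa-miR171bcde in capitals near the 3′ end.
OsMIR-87: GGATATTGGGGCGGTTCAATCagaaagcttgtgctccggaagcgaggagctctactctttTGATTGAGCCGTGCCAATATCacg

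For OsmiR-87, 1, 6 and 12 reads were counted at 0, 12 and 24 HAI, or 0.0521, 0.269 and 0.691 TPM. The ratio of 24 to 0 HAI was 13.3 with wide limits (1.96–567, adjusted p = 0.00287, exact test), as it rests on 1 read at 0 HAI. This call is in TPM, and whether it holds under the other denominators is not given here. Sequences of the predicted table were not found in the other 11 member hairpins, by sequence or by listed position.

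The miR164 family was near the lower end of the known families. At 0, 12 and 24 HAI, osa-miR164abf had 35 reads (1.82 TPM), 58 reads (2.60 TPM) and 47 reads (2.71 TPM). By summed reads the family ranked 33, 36 and 37 of 42. For osa-miR164c, there were 1, 4 and 5 reads, or 0.0521, 0.179 and 0.288 TPM. This is close to the 3 reads, or 0.156, 0.134 and 0.173 TPM, that a count of 0 allows.

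The ratio of 24 to 0 HAI was 1.49 for osa-miR164abf (0.939–2.37, adjusted p = 0.123, exact test) and 5.53 for osa-miR164c (0.619–262, adjusted p = 0.163, exact test). Summed, the miR164 reads gave a ratio of 1.60 (1.02–2.52, adjusted p = 0.0360, exact test over 42 families), a call that was lost under each of the 4 other denominators. No difference between any 2 libraries was detectable in TPM at this depth for either member, and the ratio of osa-miR164abf turned to below 1 under the summed miRNA reads and TMM factors. The share of osa-miR164c in the miR164 reads was 2.78% (0.492–14.2%), 6.45% (2.54–15.4%) and 9.62% (4.18–20.6%) at 0, 12 and 24 HAI, with intervals that overlapped, and its ratio of 24 to 0 HAI did not differ detectably from that of osa-miR164abf (adjusted p = 0.412, Fisher's exact test).

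The 3 precursors of osa-miR164abf were osa-MIR164a (chromosome 7, minus strand, 28523357 to 28523480, intergenic), osa-MIR164b (chromosome 5, minus strand, 15896169 to 15896263, exon) and osa-MIR164f (chromosome 5, plus strand, 23343931 to 23344092, intergenic). The precursor osa-MIR164c was listed as intergenic on chromosome 5, plus strand, from 17327450 to 17327550. With 162 nt and 71.0% G+C, osa-MIR164f was the longest of the 12 precursors and the richest in G+C. The conservation column of the table put osa-miR164c in class II (several species) and the other 6 members in class I (highly conserved).

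Over the 12 precursors the listed folding energy ran from -97.1 to -29.2 kcal/mol with a median of -49.3 kcal/mol, against -133.3 to -27.4 kcal/mol with a median of -48.1 kcal/mol for the other 71 precursors of known miRNAs. The folding energy index, which divides that energy by length and G+C content, had a median of 0.944 (0.797–1.12) in the members and 1.03 (0.721–1.73) in the others. Of the 12 precursors, 8 were intergenic, 4 exonic and 0 intronic, against 30, 29 and 12 of the other 71. No test was made on these features.

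As families, miR171 had 995, 2647 and 2743 reads at 0, 12 and 24 HAI and miR396 had 1108, 1660 and 2209. In TPM, miR171 was 3.05 times as high at 24 as at 0 HAI (2.84–3.28, adjusted p = 1.26e-226, exact test on summed reads, adjusted over 42 families) and miR396 was 2.21 times as high (2.05–2.37, adjusted p = 1.91e-108, exact test). Their limits did not overlap. For 12 against 0 HAI the ratios were 2.29 (2.13–2.46) and 1.29 (1.19–1.39), and for 24 against 12 HAI they were 1.33 (1.26–1.41) and 1.71 (1.61–1.83), of which that of miR396 for 12 against 0 HAI became a called decrease under the summed miRNA reads (log2 ratio -0.57, adjusted p = 4.86e-23, exact test) and TMM factors (-0.44, adjusted p = 1.57e-14, exact test). A higher TPM was called for 88.1% of the 42 families for 24 against 0 HAI, for 85.7% for 12 against 0 HAI and for 52.4% for 24 against 12 HAI, so the calls of miR171 and miR396 follow the general direction of the tables. Relative to the summed miRNA reads, miR171 was still called higher at 24 than at 0 HAI, while the log2 ratio of miR396 was -0.054 (adjusted p = 0.341, exact test). With TMM factors both families were called higher at 24 than at 0 HAI. The log2 ratios were 0.61 for miR171 (adjusted p = 3.87e-31, exact test) and 0.14 for miR396 (adjusted p = 0.0111, exact test).

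Counted over the 7 members, 4 were called higher at 24 than at 0 HAI, beside 52.9% of all 289 miRNAs. At 12 against 0 HAI 5 were called higher, beside 48.6% of the 288 miRNAs with a read in either library. At 24 against 12 HAI, 2 were called higher, beside 20.1% of all, and 1 was called lower, osa-miR396b, beside 8.3% of all. Scaled to the summed miRNA reads, 2 members were called higher (osa-miR171i and osa-miR396a) and 2 lower (osa-miR171bcde and osa-miR396b) at 24 against 0 HAI, and with TMM factors the count was also 2 and 2. For 12 against 0 HAI it was 1 higher and 2 lower with the summed miRNA reads and 1 and 1 with TMM factors, and for 24 against 12 HAI 2 and 2 with either. Over all miRNAs at 24 against 0 HAI the split was 153 higher and 5 lower in TPM, 47 and 60 with the summed miRNA reads and 56 and 43 with TMM factors. The split over all at 12 against 0 HAI was 35 and 31 with the summed miRNA reads and 38 and 23 with TMM factors. At 24 against 12 HAI it was 35 and 52 with the summed miRNA reads and 41 and 41 with TMM factors.

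By fold alone, 3 members were more than 2-fold higher at 24 than at 0 HAI (osa-miR396a, osa-miR171i and, on 5 reads against 1, osa-miR164c), beside 50.5% of all miRNAs. Scaled to the summed miRNA reads, 1 member was more than 2-fold higher (osa-miR164c, log2 ratio 1.27) and 1 more than 2-fold lower (osa-miR396b, -1.20), while osa-miR396a (0.95) and osa-miR171i (0.66) were less than 2-fold higher. With TMM factors, osa-miR164c (1.46) and osa-miR396a (1.14) were more than 2-fold higher and osa-miR396b (-1.01) more than 2-fold lower. More than 2-fold higher were 2 members for 12 against 0 HAI (osa-miR171i and osa-miR164c), beside 39.2%, against 0 under either of these scalings, and 1 for 24 against 12 HAI (osa-miR396a), beside 13.8%. The median ratio of 24 to 0 HAI was 1.88 over the members and 2.005 over all miRNAs, and that of 24 to 12 HAI was 1.06 over the members and 1.12 over all. For 12 against 0 HAI the medians were 1.67 over the members and 1.78 over all. These medians and the shares over all miRNAs are in TPM. The summed miRNA reads and TMM factors lower the log2 ratio of every miRNA alike, and 2-fold shares over all miRNAs under them are not given here. With the summed miRNA reads the median log2 ratio over all was -0.10 for 12 against 0 HAI and -0.19 for 24 against 0 HAI. With TMM factors it was 0.027 and 0.0014.

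**Figure D3:**
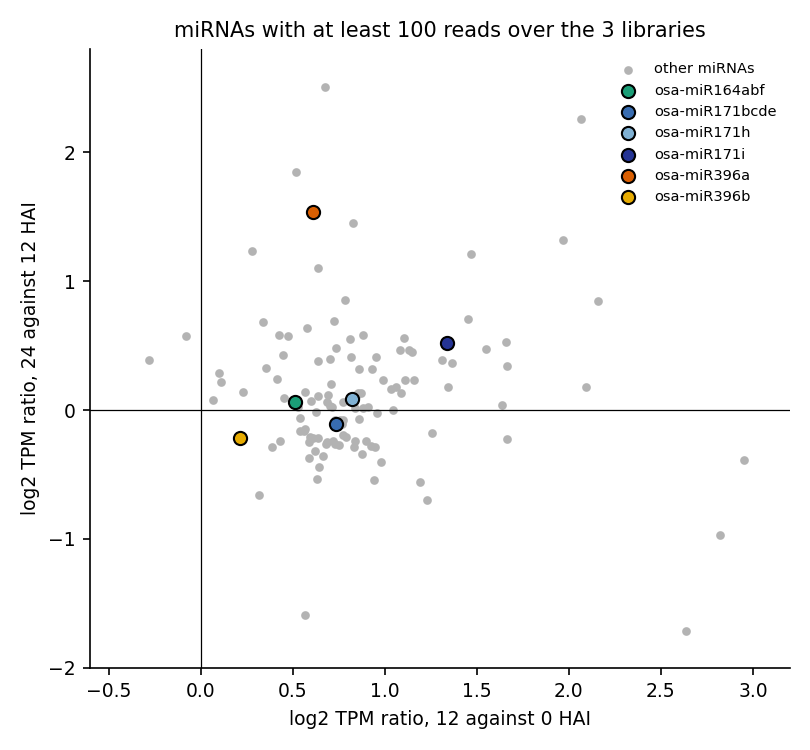
Log2 TPM ratio of 24 against 12 HAI (y axis) over that of 12 against 0 HAI (x axis) for miRNAs with 100 reads or more in all, 1 point per miRNA, members coloured. Of 141 miRNAs, 123 are inside the axes, and osa-miR396a lies high on the y axis at 1.54 while osa-miR396b is low on the x axis at 0.21 and lies at -0.22 on the y axis.

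Among the 46 other known miRNAs with at least 100 reads, the nearest to each member was found by the Euclidean distance of the log2 ratios of 12 and 24 HAI to 0 HAI, which are only 2 values per miRNA. Nearest to osa-miR396a was osa-miR393b, from a family that targets auxin receptor mRNAs, with 0.781, 1.12 and 4.03 TPM (distance 0.24). This neighbour had only 15, 25 and 70 reads at 0, 12 and 24 HAI, so counting error weighs on its ratios and on the distance. Nearest to osa-miR171i was osa-miR159b, from a family that targets GAMYB mRNAs, with 1696, 4362 and 5617 TPM (distance 0.13). The nearest to osa-miR396b, osa-miR5159 with 18.0, 27.9 and 19.2 TPM, was the farthest of the neighbours at a distance of 0.43. Nearest to osa-miR171bcde was osa-miR1862e with 17.5, 29.9 and 27.7 TPM (distance 0.05), and nearest to osa-miR171h was osa-miR156abcei with 1766, 2884 and 3314 TPM (distance 0.11). For osa-miR164abf it was osa-miR166i with 304.3, 415.6 and 442.9 TPM (distance 0.07). With 10 reads in all, osa-miR164c was left out of this search.

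As all members are 21 nt long, their levels were compared without a length correction. The libraries were made by adaptor ligation and PCR, and whether these steps recover the different sequences equally was not tested. The order below is therefore one of reads, and its intervals cover counting error only. Ordered by level at 0 HAI, osa-miR396b (37.3 TPM, exact Poisson 95% interval 34.7–40.2) and osa-miR171i (37.0 TPM, 34.3–39.8) led with overlapping intervals. At 12 HAI osa-miR171i (93.3 TPM, 89.4–97.4) was above osa-miR396b (43.3 TPM, 40.6–46.1) and osa-miR396a (31.1 TPM, 28.8–33.5). At 24 HAI the order was osa-miR171i (133.5 TPM, 128.1–139.1), osa-miR396a (90.1 TPM, 85.7–94.7) and osa-miR396b (37.2 TPM, 34.3–40.1), with no overlap. Below them osa-miR171bcde, osa-miR171h, osa-miR164abf and osa-miR164c followed in this order in all 3 libraries. By reads among the 59 known sequences, osa-miR396a ranked 23, 25 and 20 at 0, 12 and 24 HAI, and osa-miR396b ranked 19, 23 and 27.

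**Figure D4:**
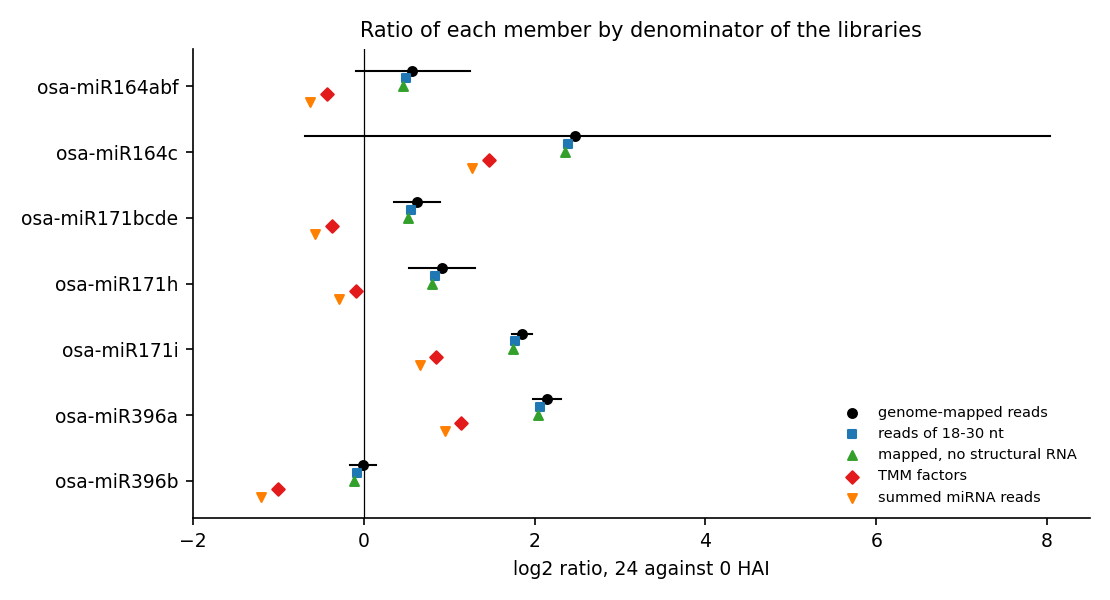
Log2 ratio of 24 to 0 HAI (x axis) for each member under 5 denominators of the libraries, with the exact 95% limits of the TPM ratio as a line through the black point. Under the summed miRNA reads and TMM factors osa-miR396a, osa-miR171i and osa-miR164c stay above 0 and the other 4 members lie below 0.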

How the data were processed

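Small RNAs of rice embryos were analysed at 0, 12 and 24 HAI, with 1 library each, matched to the columns by label. The read counts were deposited by the authors without normalization, after quality filtering, Bowtie mapping to MSU 7.0, removal of structural RNA matches in Rfam 11 and alignment to miRBase 21. The TPM values deposited by the authors equal reads per 1000000 genome-mapped reads in all 407 rows (relative tolerance 0.0001). The folding energy scores were deposited by the authors from Mfold 3.2.

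The first copy of the known table was read, with families filled down, and 1 unnamed predicted sequence was left out. Without replicates no quasi-likelihood model was possible. Reads of 2 libraries were compared with an exact conditional binomial test given the mapped totals, adjusted over all miRNAs with a read in the pair, with a threshold of 0.05, and members of a family with Fisher's exact test on reads. Alternatives were 4 other denominators, among them library totals stated in the paper, a filter of at least 10 reads in a library, 1 read added, a fold of 3, and adjustment over known miRNAs only. TMM factors assume few changed miRNAs, and summed reads assume a constant total. All members are named, with other miRNAs named by nearest profile or by lying in a member hairpin. The members, lists and tests were chosen with earlier results of these data known. The exact conditional binomial test was checked on simulated Poisson counts, which hold no variation between libraries beyond counting error. Fisher's exact test was not simulated. The reads were amplified by PCR with no molecular identifiers described. Tools were Python 3.11.15, scipy 1.17.1, RNAfold 2.7.2, R 4.3.3 and edgeR 4.0.16 (TMM only).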

Additional observations from a re-analysis of the deposited data

How the results depend on the processing

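The quotients between members of a family do not depend on the denominator, and all 15 kept their direction and their side of the threshold with 1 read added, as did the 12 that a filter of 10 reads leaves. With 1 read added, no family or member ratio changed its call. When scaled to reads of 18–30 nt or to mapped reads minus structural RNA, the 24 to 0 HAI ratio of miR164 lost its call (log2 ratios 0.60 and 0.57, against 0.68 in TPM), and so did the 12 to 0 HAI ratio of osa-miR396b. Most other changes came with the summed miRNA reads and TMM factors, given in this order. For 12 against 0 HAI, the log2 ratio turned to -0.37 and -0.24 for miR164, -0.57 and -0.44 for miR396, -0.42 and -0.30 for osa-miR164abf, -0.20 and -0.071 for osa-miR171bcde, -0.33 and -0.20 for osa-miR396a and -0.72 and -0.60 for osa-miR396b, and to -0.11 for osa-miR171h with the summed reads alone. With TMM factors the 12 to 0 HAI ratio of osa-miR171h lost its call at a log2 ratio of 0.013. For 24 against 0 HAI it turned to -0.52 and -0.33 for miR164, -0.62 and -0.43 for osa-miR164abf, -0.57 and -0.38 for osa-miR171bcde and -0.28 and -0.091 for osa-miR171h, and to -0.054 for miR396 with the summed reads alone. For 24 against 12 HAI it turned to -0.15 and -0.084 for miR164, -0.20 and -0.13 for osa-miR164abf and -0.17 and -0.10 for osa-miR171h. The members called by the exact test at 12 against 0 HAI, 5 in TPM, numbered 3 and 2. The members more than 2-fold apart at 12 against 0 HAI, 2 in TPM, numbered 0 under both, 1 with the filter of 10 reads, which removes osa-miR164c, and 1 with a fold of 3. At 24 against 0 HAI they were 3 in TPM, 2 with the summed reads and 2 with the filter of 10 reads, and the 3 with TMM factors differ, as osa-miR171i leaves and osa-miR396b enters as lower. The 12 to 0 HAI decreases of miR396 and osa-miR396b were called under both scalings, and that of osa-miR396a under the summed reads. With a fold of 3, 0 members remained at 24 against 12 HAI. Adjustment over known miRNAs alone left the number of members called as it was. No paired analysis was possible because each time point has 1 library. Limits and intervals cover counting error only, and the 1 to 5 reads of osa-miR164c allow no call.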
